A study of Mus musculus with 27 samples.

Results

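The genes described here are the nuclear-encoded subunits of the oxidative phosphorylation complexes. They were taken as the rows of the count table whose Ensembl identifier carries a protein-coding mouse symbol beginning with Nduf and a subunit letter and number, Sdha to Sdhd, Uqcr, Cox4 to Cox8 with a subunit letter, or Atp5. This gave 82 of the 52550 genes in the table. By their known place in the respiratory chain, 35 belong to complex I, 4 to complex II, 8 to complex III, 18 to complex IV and 17 to complex V. Ndufa4 and its relative Ndufa4l2 carry complex I names but are counted with complex IV, where the Ndufa4 protein sits. A further 12 rows that match the pattern are pseudogenes or non-coding and were left out; together they held at most 0.00329% of the counts of a library. The pattern misses some true subunits, such as Cox4i1, Cox4i2, Ndufab1 and Cyc1.

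Poly-A RNA was sequenced from the ileum, cecum and colon of male C57BL/6 mice kept specific-pathogen-free. All mice were 6 weeks old at the start, had 7 days to settle, and then ate standard feed or standard feed with arsenic for 60 days, with 10 mice assigned to each diet. The arsenic feed held 30 µg of arsenic per g, of which 72.7% was arsenite, 7.3% arsenate, 1.0% monomethylarsonic acid and 19.0% dimethylarsinic acid. Ileum and cecum each have 4 libraries from control feed and 5 from arsenic feed, and colon has 5 and 4, which makes 27 in all. The labels do not say whether libraries with 1 number in different regions come from 1 mouse, so p-values measure the spread between libraries. The labels name the tissue only as ileum, cecum or colon, with no sorting of cells. In such bulk RNA, fewer cells of a type and less RNA per cell cannot be told apart.

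Oxidative phosphorylation makes most of the ATP of many cells. Complexes I and II feed electrons from NADH and succinate into the chain, complex III passes them to cytochrome c, complex IV hands them to oxygen, and complex V, the ATP synthase, uses the proton gradient that complexes I, III and IV build. Most subunits are encoded in the nucleus and must be matched by the few made inside the mitochondrion, which include the catalytic core of complex IV. Absorptive cells of the large intestine burn butyrate from bacterial fermentation through this chain, whereas those of the small intestine rely largely on glutamine.

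Nuclear respiratory factor 1 (NRF1) and the ETS-family factor GABP (NRF2) are known regulators of these genes, so the bases upstream of each start site were searched for their letters. RefSeq promoter windows on build GRCm38.p6 matched 68 of the 82 genes. The NRF1 letters, GCGC and TGCGC with any single base between them, read on either strand, occurred in the 250 bases before the start of 13 of the 68 genes (19.1%), against 4.23% of 27025 genes in the table of promoters and 8.06% of 11732 protein-coding genes with enough counts to be tested. The ETS letters CCGGAAG, also on either strand, occurred in 12 (17.6%), against 7.83% and 13.8%. Either motif was found in 22 genes (32.4%, against 11.3% and 20.4%), and both in 3, namely Cox6a1, Sdhd and Atp5h. No place of a motif overlaps the other in the windows printed. Shown here are Cox6a1, the gene with the highest level per kilobase and the largest cecal excess over ileum on control feed, Sdha, the only window printed with 3 NRF1 matches, Ndufa8, which rose in the ileum on arsenic feed, and Ndufa4, which holds neither motif and whose regional order is unlike that of most of the set. Capitals mark the motif letters, and each sequence runs 5′ to 3′ on the strand of its gene.
Cox6a1, chr5:115348959-115349208, minus strand: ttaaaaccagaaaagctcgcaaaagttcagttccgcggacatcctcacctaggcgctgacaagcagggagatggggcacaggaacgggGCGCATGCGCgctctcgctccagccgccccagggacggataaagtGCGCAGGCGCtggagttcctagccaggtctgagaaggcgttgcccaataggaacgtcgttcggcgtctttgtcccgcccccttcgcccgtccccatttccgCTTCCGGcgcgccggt
Sdha, chr13:74350241-74350490, minus strand: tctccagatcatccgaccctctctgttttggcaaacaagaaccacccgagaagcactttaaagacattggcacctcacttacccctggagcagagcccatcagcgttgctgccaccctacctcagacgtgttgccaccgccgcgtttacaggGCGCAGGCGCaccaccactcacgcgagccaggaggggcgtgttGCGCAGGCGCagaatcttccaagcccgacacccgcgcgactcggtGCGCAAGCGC
Ndufa8, chr2:36049339-36049588, minus strand: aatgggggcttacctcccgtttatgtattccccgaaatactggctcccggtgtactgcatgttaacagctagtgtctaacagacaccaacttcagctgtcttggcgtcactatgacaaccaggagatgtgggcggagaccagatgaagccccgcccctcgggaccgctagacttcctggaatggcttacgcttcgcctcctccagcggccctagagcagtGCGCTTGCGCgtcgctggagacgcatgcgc
Ndufa4, chr6:11907451-11907700, minus strand: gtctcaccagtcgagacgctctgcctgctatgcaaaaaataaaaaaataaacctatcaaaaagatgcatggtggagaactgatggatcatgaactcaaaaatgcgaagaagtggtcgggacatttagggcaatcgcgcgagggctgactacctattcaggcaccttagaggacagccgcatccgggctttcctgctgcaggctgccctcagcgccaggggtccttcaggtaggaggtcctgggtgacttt
The regional differences described further on were also counted by motif. In colon against cecum, 13 of the 22 genes with a motif and 31 of the 45 tested genes with neither were lower on control feed, with a median log2 change of -0.40 in each group; on arsenic feed the counts were 17 of 22 and 30 of 45. In cecum against ileum on control feed, 5 of 22 genes with a motif and 19 of 45 with neither were higher in cecum, with medians of 0.05 and 0.21. The differences between these motif groups were not tested.

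Each library held 15717600 to 18208518 counts, and the 82 genes took 1.28 to 2.1% of them. Mitochondrially encoded genes took 3.32 to 6.86%. Levels are given as CPM, counts scaled to one fixed library total, after TMM scaling of the 27 libraries. In the ileum control libraries 74 of the 82 genes averaged at least 10 CPM and 48 at least 100 CPM. Per kilobase of transcript, over the 27 libraries, Cox6a1 (a widespread complex IV subunit) led with 1186 CPM per kb, followed by Atp5b, the catalytic beta subunit of the ATP synthase head, at 997, by Cox8a of complex IV at 701 and by Atp5a1, the alpha subunit of that head, at 607. At the other end Cox8c, a testis form, had 0 counts in all 27 libraries, which allows at most 3 counts for counting error only, and Cox7b2 had 3 counts and Cox6a2, the heart and muscle form of Cox6a1, 66. Those 3 genes failed the filter on low counts, which left 79 tested in most comparisons and 77 in the cecum diet comparison, where Cox8b and Ndufa4l2 also failed it. Exons of 28 genes overlap another gene, 25 of them on the opposite strand. Since the strand setting of the counting is not given in the sources used here, reads of such neighbours may be shared.

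Summed over the 82 genes, the cecum was highest and the colon lowest on control feed. The sums were 16046, 14820, 15019 and 15073 CPM in ileum control libraries 1, 2, 3 and 5. In cecum control libraries 1, 2, 4 and 5 they were 18112, 18179, 19109 and 19337 CPM. Colon control libraries 1 to 5 gave 15599, 13713, 12396, 12302 and 12800 CPM. The cecum range overlapped neither of the other regions, and colon library 1 lay above the other 4 colon libraries and inside the ileal range. TMM scaling enters these sums, with factors of 0.852 to 0.884 in cecum control and 1.03 to 1.11 in colon control libraries. As a plain share of counts, the subunits took 1.59 to 1.69% in cecum control and 1.51 to 1.61% in ileum control libraries. Those ranges overlap, and colon control library 1, at 1.68%, lay inside the cecum range. On arsenic feed the sums in libraries 11, 12, 13, 14 and 15 of the ileum were 14912, 20131, 16046, 19839 and 21564 CPM. They were 18291, 17680, 17492, 19074 and 18568 CPM in cecum libraries 11 to 15, and 12372, 13600, 13132 and 13232 CPM in colon libraries 11, 12, 13 and 15. The cecal and colonic sums overlap between diets. Ileum arsenic libraries 12, 14 and 15 exceed every ileal control, and libraries 11 and 13 do not. As a plain share of counts all ileum arsenic libraries did, at 1.67 to 2.1% against at most 1.61% in ileum control libraries. Library 15, with a TMM factor of 0.824 against 0.98 to 1.13 in the other ileum libraries, had a share of 1.78%. Libraries 12 and 14 had shares of 1.97 and 2.1%.

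**Figure D1:**
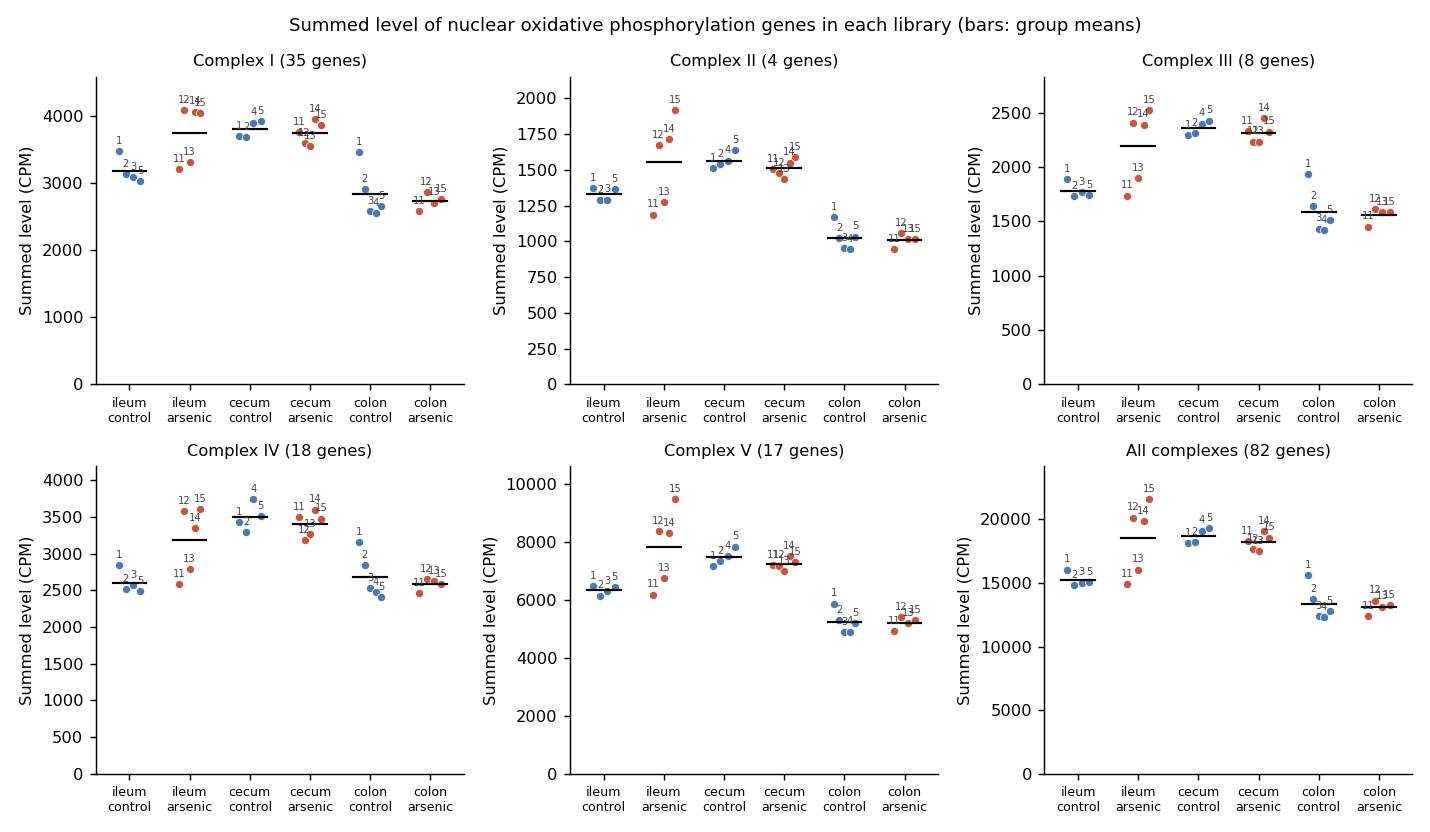
Summed level in CPM (y axis, from 0) of the genes of each complex and of all 82 genes in each of the 27 libraries, by region and diet (x axis); points are libraries with their numbers, bars are group means. In every panel ileum arsenic libraries 12, 14 and 15 lie above the ileal controls while 11 and 13 lie near them, and the colon has the lowest group mean on each diet, except for complex IV on control feed.

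Colon against cecum gave the most uniform difference: most subunits of all 5 complexes were lower in the colon, and on both diets. On control feed 55 of 79 genes passed the test, an edgeR adjusted p under 0.05, 53 of them lower and 2 higher; over all 16882 genes 47.2% were called, 25.3% lower and 21.9% higher. The median log2 change of the 79 was -0.40, against -0.05 over all genes. On arsenic feed, in separate libraries, 58 of 79 passed, 57 lower and 1 higher, against 38.6% of all genes called, 16.2% lower and 22.5% higher, with medians of -0.37 and 0.02. The same 46 genes were lower on both diets, 86.8% of the control list and 80.7% of the arsenic list, and 77 of 79 had the same sign. The agreement between diets over all genes is not given here, so whether it is particular to the subunits cannot be told.

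By complex, the control-fed counts lower in colon were 23 of 35 for complex I, 4 of 4 for complex II, 5 of 8 for complex III, 9 of 15 for complex IV and 12 of 17 for complex V. On arsenic feed they were 27, 3, 5, 9 and 13. Complex II, the succinate dehydrogenase of the citric acid cycle, had the lowest median on control feed (log2 -0.63), and its membrane anchor Sdhd fell by 0.65 ± 0.09 (SE) on the log2 scale there and by 0.72 ± 0.14 on arsenic feed. Sdhd was at 351, 359, 372 and 393 CPM in the 4 cecum control libraries and at 278, 229.7, 219, 214 and 227 CPM in the 5 colon control libraries. The groups do not overlap, and the edgeR adjusted p was 5.91e-05 on control and 0.00102 on arsenic feed.

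In complex III, Uqcrfs1, the Rieske iron-sulfur protein that takes electrons from ubiquinol, was at 524, 542, 562 and 580.1 CPM in the cecum control libraries. It was at 307, 303, 272, 257 and 292 CPM in the colon control libraries. Every colon library lay below every cecum library, a 1.92-fold lower level (log2 -0.94 ± 0.07, edgeR adjusted p 7.92e-07), and on arsenic feed it was 1.64-fold lower (log2 -0.71 ± 0.13, adjusted p 0.000474, edgeR). Uqcrc2, a complex III core protein, fell by 0.63 ± 0.08 on arsenic feed (edgeR adjusted p 3.97e-05). Ndufa9, an accessory complex I subunit, fell by 0.59 ± 0.08 on control feed and by 0.60 ± 0.09 on arsenic feed (edgeR adjusted p 4.07e-05 and 7.6e-05), and Atp5a1 fell by 0.68 ± 0.08 on control feed (1.84e-05).

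**Figure D2:**
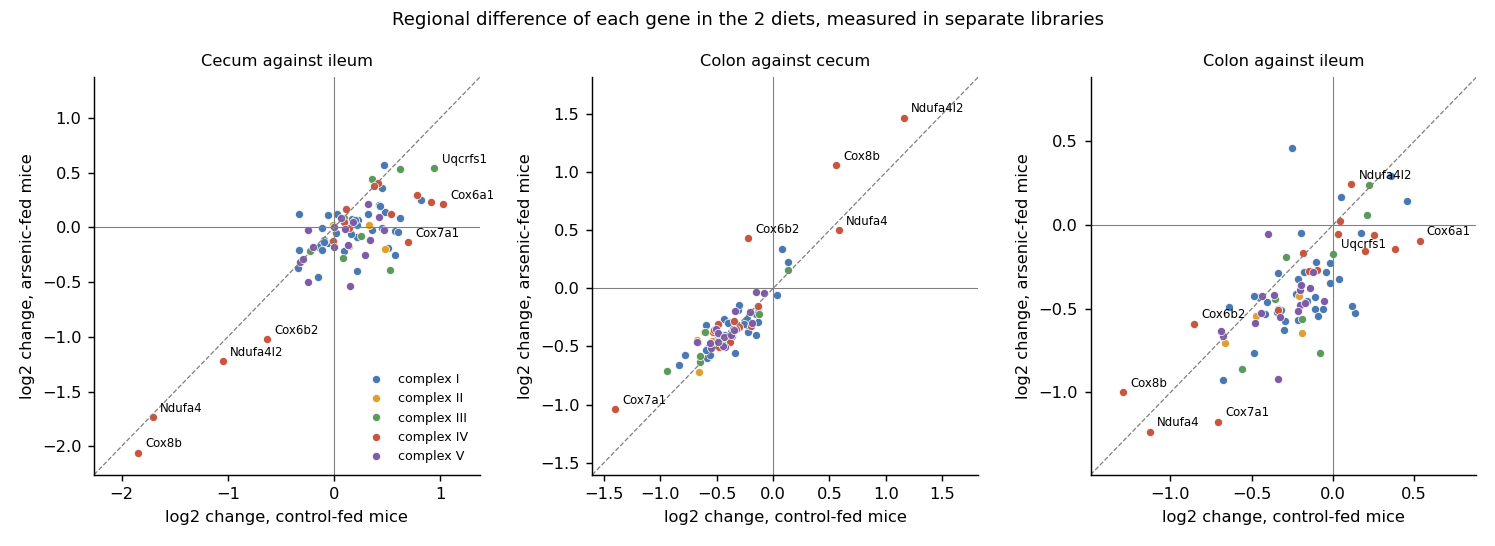
log2 change of each tested gene between regions in control-fed mice (x axis) and in arsenic-fed mice (y axis), coloured by complex; the dashed line marks equal changes. In colon against cecum nearly all points lie in the lower left, with Ndufa4, Ndufa4l2 and Cox8b to the upper right, whereas cecum against ileum shifts downward on arsenic feed.

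Cell-type markers moved with the colonic fall. All 11 smooth muscle markers were higher in colon than cecum on each diet (median log2 change 1.07 and 1.06), and their summed level was 3386 to 4494 CPM in cecum control and 6562 to 9191 CPM in colon control libraries, with no marker at 0. The 12 enterocyte markers summed to 34368 to 37063 and 20894 to 24415 CPM in the same groups. Of them, 8 were lower and 1 higher in colon on control feed, and 4 and 2 on arsenic feed. Their part in the result was not tested. Without colon control library 1, whose summed level stood apart, 64 of the 79 subunits passed rather than 55. The calls over all genes rose too, from 7970 to 8931.

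Companion genes of the organelle were also often lower. Of 60 mitochondrial ribosome genes, 49 were lower in colon than cecum on each diet, with medians of -0.47 and -0.41, and none was higher. Assembly factors of complex I were lower for 9 of 17 on each diet, and those of complexes II to V for 20 of 28 and 16 of 29. Citric acid cycle genes were lower for 14 of 18 and 10 of 18, with 2 higher on each diet, one of them Pdha1 (log2 0.92 ± 0.08 and 1.00 ± 0.10). The 13 mitochondrially encoded subunits summed to 55625 to 68932 CPM in cecum control and 38870 to 42772.5 CPM in colon control libraries. On arsenic feed the sums were 59288 to 73945 CPM in cecum and 41060 to 44571 CPM in colon, without overlap on either diet. Of the 12 tested, 2 were lower and 1 higher on control feed and 4 and 1 on arsenic feed. Those with the smallest p, both lower, were mt-Co1 and mt-Co2, core subunits of complex IV, with mt-Co1 at log2 -0.80 ± 0.10 on control feed and -0.75 ± 0.12 on arsenic feed. Poly-A selection sets how well such transcripts are captured, and no test compared these lists with one another. Of 14 regulators of mitochondrial gene expression and biogenesis, 6 were lower and 1 higher in colon on control feed, and 5 and 3 on arsenic feed. Ppargc1a, a coactivator of mitochondrial genes, was higher in colon, with log2 changes of 1.85 ± 0.23 and 1.52 ± 0.28.

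Cecum against ileum split the set. On control feed 38 of 79 subunits passed, 31 higher and 7 lower in cecum, against 54.9% of all genes called, 28.4% higher and 26.5% lower. The share called was thus below the background while the direction leaned to the cecum; the median was 0.17, against -0.03 over all genes. With upper-quartile scaling the split became 20 higher and 14 lower. That of all genes went from 4800 higher and 4466 lower to 3663 and 5859. The median of the subunits minus that of all genes was 0.1986 there, against 0.1976 with TMM scaling. The largest rise was that of Cox6a1, 2.03-fold (log2 1.02 ± 0.12, edgeR adjusted p 5.6e-06). Control-fed ileum libraries held 467, 409, 422 and 454 CPM of it and cecum libraries 927, 838, 935 and 878 CPM, with a wide gap between the groups. Uqcrfs1 followed at 1.92-fold (log2 0.94 ± 0.08, edgeR adjusted p 2.42e-07), then Cox5a, a complex IV subunit around the catalytic core, at 1.88-fold (log2 0.91 ± 0.10, 4.38e-06). Lower in cecum was Atp5c1, the gamma subunit that turns inside the ATP synthase head, at log2 -0.32 ± 0.10 (edgeR adjusted p 0.0135). Its values of 401 to 475 CPM in cecum lay below the 516 to 584 CPM of the ileum.

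On arsenic feed 24 of 79 passed, 10 higher and 14 lower in cecum, against 52.2% of all genes called, 25% higher and 27.1% lower. Whether this count differs from that on control feed was not tested as such. Smooth muscle markers were lower in cecum for 8 of 11 on control feed (median log2 -0.78) and lower for 2 and higher for 2 on arsenic feed. Enterocyte markers were higher for 7 and lower for 3 of 12 on control feed, and higher for 5 and lower for 3 on arsenic feed. T cell markers were lower for 6 of 6 on each diet, and adipocyte markers for 4 and 5 of 5 tested. Their part in the result was not tested. Over all genes, the overlap of calls between the diets is not given here. All 10 subunits higher on arsenic feed were among the 31 of the control libraries, and 6 of the 14 lower ones were among the 7. Cox6a1 had a log2 change of 0.21 there and was not called, and Uqcrfs1 had a 1.45-fold higher level in cecum (log2 0.54 ± 0.12, edgeR adjusted p 0.00146). Ndufa7, an accessory subunit of complex I, was higher in the cecum by log2 0.57 ± 0.06 (adjusted p 3.07e-06, edgeR), and Uqcr10, a small complex III subunit, by 0.53 ± 0.08 (2.8e-05). Atp5e, the epsilon subunit of the ATP synthase stalk, had a log2 change of -0.50 ± 0.08 (8.19e-05), and Ndufb7 of complex I one of -0.45 ± 0.09 (0.000406). The split rests on single libraries. Without ileum library 15, alone or together with 14, 14 genes were higher and 10 lower. Without cecum library 13 the split was 12 and 8, without ileum library 14 it was 10 and 10, without cecum library 11 or 15 it was 9 and 9, and without ileum library 11 it was 8 and 21.

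Colon against ileum put the colon lower. On control feed 32 of 79 passed, 28 lower and 4 higher (Cox6a1, Ndufa1, Cox5a and Ndufa6), against 52.2% of all genes called, 24.5% lower and 27.7% higher. Without colon control library 1 the count was 55, and the calls over all genes rose from 8811 to 9575. On arsenic feed 60 of 79 passed, 57 lower and 3 higher (Ndufa6, Uqcrb and Ndufa7), against 59.1% of all genes called, 26.3% lower and 32.8% higher. Without ileum libraries 14 and 15 the count was 53. The 3 higher calls were 0 with RLE scaling and in DESeq2. In these comparisons smooth muscle markers were higher in colon for 5 of 11, with 1 lower, on control feed and for 10 of 11 on arsenic feed. T cell markers were lower for 6 of 6 on each diet, and their part was not tested. The arsenic-fed list included Ndufb3, a small complex I subunit, at log2 -0.93 ± 0.11, Ndufb7 at -0.76 ± 0.09 (edgeR adjusted p 5.95e-06) and Uqcrq, a complex III subunit, at -0.86 ± 0.12. In order of group means, the cecum ranked highest for 53 of 78 genes on control feed and for 33 on arsenic feed, where the ileum ranked highest for 42. The colon ranked lowest for 59 and 70 genes.

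Ndufa4 did not follow the rest. It encodes a small subunit of complex IV. Control-fed ileum libraries held 259.8, 238, 244 and 224 CPM. Control-fed cecum libraries held 65.9, 78, 76.8 and 76.2 CPM, and those of the colon 136, 137, 81.6, 82.6 and 115 CPM. The 3 regions do not overlap, with the ileum far above the others. On arsenic feed the ileum libraries held 227, 328, 215, 292 and 280.3 CPM. The cecum libraries of that diet held 84.3, 84.2, 79.1, 82.9 and 75.6 CPM, and the colon libraries 95.8, 122, 107 and 109 CPM, in the same order and again apart. Cecum was 3.27-fold lower than ileum on control feed (log2 -1.71 ± 0.16, edgeR adjusted p 7.85e-07) and 3.33-fold lower on arsenic feed (log2 -1.73 ± 0.11, 1.11e-08). Colon was 1.5-fold higher than cecum (log2 0.58 ± 0.15, adjusted p 0.00619) and 1.41-fold higher (log2 0.50 ± 0.12, 0.0036) by the same edgeR test. The Ndufa4 promoter printed above holds neither motif, which says only that those letters are absent from that window.

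AA467197 (Nmes1), chosen after the Ndufa4 values were seen, encodes a paralog of Ndufa4 known to take its place in complex IV. Against the ileum it ran the other way. Control-fed ileum libraries held 49.4, 30, 28.1 and 22.1 CPM of it. Control-fed cecum libraries held 136, 137, 131 and 141 CPM, and colon libraries 178, 169.7, 191, 169 and 139 CPM. The log2 change from ileum to cecum was 2.06 ± 0.19 (edgeR adjusted p 8.22e-07) and on arsenic feed 2.50 ± 0.27 (3.27e-06). From cecum to colon its estimates had the same sign as those of Ndufa4, at log2 0.32 ± 0.18 on control and 0.44 ± 0.27 on arsenic feed, and did not pass the test (edgeR adjusted p 0.151 and 0.207). The ratio of Ndufa4 to AA467197, each per kilobase, had a median of 13.9 in ileum control libraries (8.82 to 17). Its median was 0.931 in cecum control libraries (0.811 to 0.986) and 1.29 in colon control libraries (0.718 to 1.39). Arsenic-fed ileum libraries had a median of 30.5 (10.5 to 54.5), those of the cecum 1.36 (1.17 to 1.37) and those of the colon 1.37 (1.27 to 1.46). In the cecum the ratio thus did not overlap between diets, and AA467197 fell by 0.35 ± 0.05 on the log2 scale on arsenic feed (edgeR adjusted p 0.000332).

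**Figure D3:**
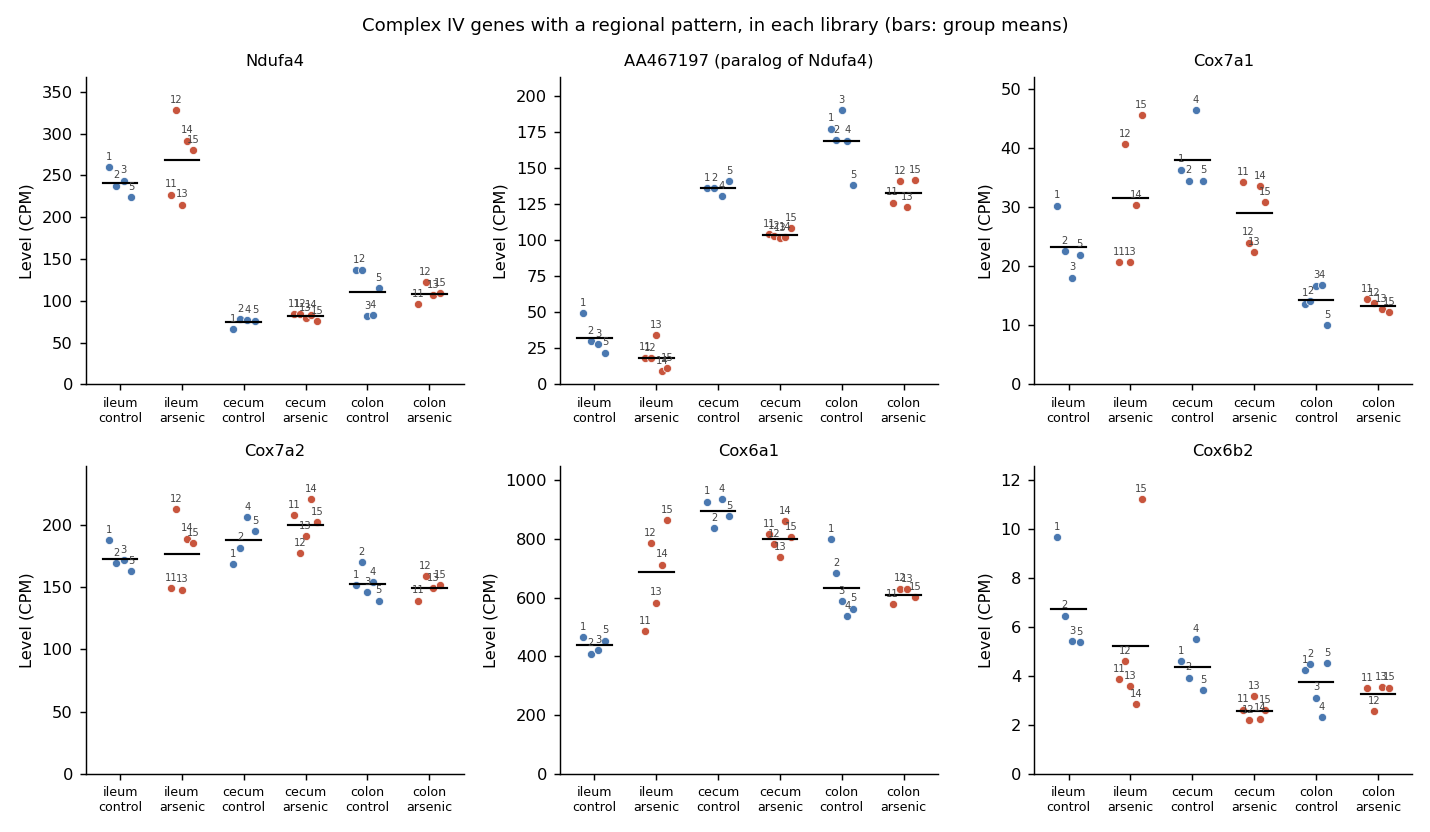
Level in CPM (y axis, from 0) of 5 complex IV genes and of AA467197, the paralog of Ndufa4, in each of the 27 libraries, by region and diet (x axis); points are libraries with their numbers, bars are group means. Ndufa4 is highest in the ileum and AA467197 in the large intestine, and Cox7a1 is lowest in the colon.

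Tissue-restricted forms of complex IV subunits were minor beside their widespread partners. Per kilobase, in ileum control libraries, Cox7a2 averaged 262 and Cox7a1, its heart and muscle form, 52.8 CPM per kb. Cox6b1 averaged 539 against 15.5 for Cox6b2, the testis form, Cox8a 574 against 3.64 for Cox8b, and Ndufa4 524 against 0.761 for Ndufa4l2, a form known to be induced by low oxygen. Cox7a1 had the steepest fall from cecum to colon of all 79 subunits tested on each diet. It was at 36.3, 34.5, 46.4 and 34.4 CPM in cecum control and at 13.7, 14.1, 16.7, 16.9 and 9.97 CPM in colon control libraries. That is 2.65-fold lower without overlap (log2 -1.40 ± 0.17, edgeR adjusted p 2.27e-05), while Cox7a2 changed by log2 -0.30 ± 0.08 (0.00939). On arsenic feed Cox7a1 was 2.06-fold lower (log2 -1.04 ± 0.23, edgeR adjusted p 0.00263).

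Cox8b and Cox6b2 were higher in ileum than cecum on both diets. For Cox6b2 the log2 change to cecum was -0.63 ± 0.25 on control feed (edgeR adjusted p 0.0437) and -1.02 ± 0.32 on arsenic feed (0.0137). Its groups overlapped on each diet. Ileum arsenic library 15, at 11.2 CPM against 2.85 to 4.61 CPM in the other 4, lifted the ileal mean, and without it the change was -0.51 (adjusted p 0.0309). On control feed Cox6b2 lost its call without ileum library 1 or 2 or without cecum library 1, 2 or 5. Cox8b averaged 1.31 ± 0.38 CPM (SD, n = 4) in ileum control libraries and 0.363 ± 0.24 CPM (SD, n = 4) in those of the cecum, from 92 and 22 counts in all. Its log2 change was -1.85 ± 0.61 on control feed (edgeR adjusted p 0.0185) and -2.06 ± 0.59 on arsenic feed (0.00826). Ndufa4l2 was lower in cecum on control feed (log2 -1.05 ± 0.38, edgeR adjusted p 0.0299), where its levels stayed under 1 CPM in both regions. Striated muscle markers, of which Myh4 was at 0 in every library and Myh1, Myh6, Tnnt3 and Actn3 averaged under 1 CPM in every group, summed to 50.6 to 77.6 CPM in ileum control and 11.2 to 13.2 CPM in cecum control libraries. Adipocyte markers summed to 526 to 1006 CPM in ileum control and 137 to 215 CPM in cecum control libraries. In ileum arsenic library 15 Cox8b was at 0.07 CPM, against 0.739 to 1.95 CPM in the others. Adipocyte markers were at 205 CPM there (others 507 to 1578 CPM) and striated muscle markers at 69.8 CPM (others 39.3 to 51.6 CPM). The part of either list in the Cox8b difference was not tested.

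Among members with a regulatory role, Cox7a2l is known as a factor for supercomplexes of complexes III and IV, a role not measured in these mice. It averaged 172 CPM in ileum, 171 CPM in cecum and 155 CPM in colon control libraries. Cox7a2l passed the test in none of the 3 diet comparisons, the nearest being the cecum (log2 0.20 ± 0.07, edgeR adjusted p 0.0509). Atpif1, the inhibitor of the ATP synthase and outside the name pattern, was lower in colon than cecum by log2 -0.60 ± 0.21 on control feed (edgeR adjusted p 0.0273) and -0.85 ± 0.11 on arsenic feed (2.11e-05). Among other subunits the pattern misses, Cox4i1, the main form of a large complex IV subunit, was lower in colon than cecum on both diets (log2 -0.57 ± 0.20 and -0.50 ± 0.12). Its alternative form Cox4i2 was higher in colon by log2 2.03 ± 0.32 and 1.35 ± 0.33, at 1.61 CPM or less in each library.

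The diet comparisons ask whether feed with arsenic moved these genes within a region. In the ileum, 4 of 79 subunits rose and none fell: Uqcrc1, Ndufa8, Cox5a and Ndufs7, the last named after its values were seen. That is 5.06%, under the 7.3% of all 16305 genes called in either direction (4.02% higher and 3.28% lower), so the count does not exceed the background. The median log2 change was 0.13, against -0.00 over all genes, with 59 of 79 estimates above 0. Of the 79, 21 had an unadjusted p under 0.05 in edgeR. The share of all genes with such a p is not given here, so that count cannot be set against a background.

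Uqcrc1, a core protein of complex III, was at 288, 278, 298 and 368 CPM in the ileum control libraries and at 376, 617, 501, 636 and 743 CPM in arsenic libraries 11 to 15. Every arsenic library was above every control, 11 only by a little. The fold was 1.81 (log2 0.86 ± 0.19, edgeR adjusted p 0.0248). Ndufa8, an accessory complex I subunit whose promoter is printed above, was at 82.8, 75.3, 65.0 and 84.3 CPM against 93.5, 135, 115, 133 and 135 CPM. Its groups did not overlap, and the fold was 1.55 (log2 0.63 ± 0.13, edgeR adjusted p 0.022). Cox5a was at 75.5, 78.9, 74.2 and 79.9 CPM in control libraries and at 86.9, 116, 105, 124 and 131 CPM in arsenic libraries, a 1.42-fold rise without overlap (log2 0.50 ± 0.12, edgeR adjusted p 0.0312). Ndufs7, a core complex I subunit with an iron-sulfur cluster, was at 103, 82.9, 82 and 82.7 CPM against 100.4, 131, 116, 146 and 143 CPM. Arsenic library 11 lay below control library 1 here, and the fold was 1.41 (log2 0.50 ± 0.13, edgeR adjusted p 0.0451).

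**Figure D4:**
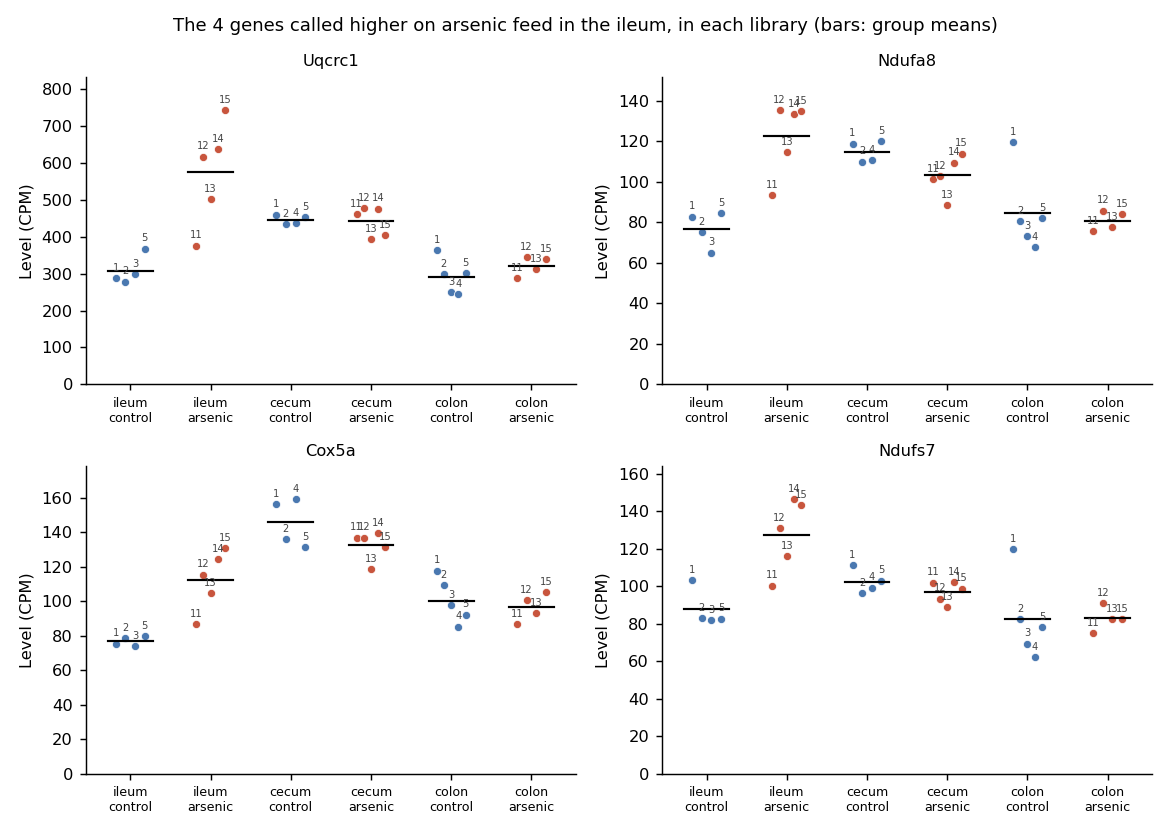
Level in CPM (y axis, from 0) of Uqcrc1, Ndufa8, Cox5a and Ndufs7 in each of the 27 libraries, by region and diet (x axis); points are libraries with their numbers, bars are group means. In the ileum, arsenic libraries 12, 14 and 15 are highest and library 11 is closest to the controls, whereas in the cecum and colon the diets overlap.

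After TMM scaling, the ileal shift was uneven between libraries. Of the 79 subunits, 65, 54 and 58 were above every control in arsenic libraries 12, 14 and 15, but 11 and 22 in libraries 11 and 13, where 18 and 22 were below every control. The share over all genes is not given here, so whether these counts are particular to the subunits cannot be told. Libraries 14 and 15 also stood apart in the bile acid carrier Fabp6, a gene of the distal ileum, at 6.13 and 1.33 CPM against 219 to 4272 CPM in the other ileum libraries. The ileum marker list as a whole did not set them apart, with sums of 6388 and 11101 CPM in libraries 14 and 15 against 6302 to 11592 CPM in the other 7. Without those 2 libraries no subunit was called, and the median was 0.11, against 0.02 over all genes. In that edgeR fit 15 had an unadjusted p under 0.05, again without the share over all genes. The count was also 0 without control library 1, 2 or 3, 2 without control 5, 1 without arsenic library 12 or 14, and 12 without arsenic library 11.

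Cell-type markers in the ileum gave 1 call. The 6 large intestine markers summed to 2842 to 3273 CPM in ileum control and 1634 to 2365 CPM in ileum arsenic libraries, without overlap, and 1 of 5 tested was called lower. None of the 11 smooth muscle markers was called, and their sums overlapped, at 4730 to 8854 CPM in control and 4771 to 5346 CPM in arsenic libraries. A clock score, the mean log2 level of the core clock genes Arntl, Npas2 and Clock minus that of 8 rhythmic genes of the opposite phase such as Dbp and Per1, ran from -0.71 to 0.25 in the ileum control libraries and from -1.77 to -0.65 in the arsenic libraries. In the cecum and colon it did not overlap between diets. On arsenic feed 2 of those 3 core genes were lower in ileum libraries and all 3 in cecum libraries. With either score as a covariate no subunit was called in the ileum, and the median log2 change of the 79 became 0.23 with the smooth muscle score and -0.10 with the clock score. Their part in the result was not tested.

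Of the core subunits followed in each diet comparison, Atp5a1 and Atp5b had ileal log2 changes of 0.38 ± 0.15 and 0.34 ± 0.16, Ndufv1 (the NADH-binding subunit of complex I) 0.45 ± 0.15, Sdha 0.23 ± 0.13 and Uqcrfs1 0.26 ± 0.15. None of these passed the test, with edgeR adjusted p of 0.0884 or more. Ndufs1, the largest complex I subunit, gave 0.11 ± 0.11. Cox6a1 missed it narrowly (log2 0.61 ± 0.17, edgeR adjusted p 0.0511), with arsenic libraries at 486 to 864 CPM above all controls at 409 to 467 CPM. Mitochondrially encoded subunits gave no call of 12 in the ileum and a median of -0.10, while 9 of 60 mitochondrial ribosome genes rose and none fell; Mrpl2 had the smallest p (log2 0.75 ± 0.11, edgeR adjusted p 0.00736). Ucp2, an inner membrane carrier, rose by log2 1.09 ± 0.18 (edgeR adjusted p 0.0105).

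In the cecum 3 of 77 subunits passed, 1 higher and 2 lower. This 3.9% lies far below the 25.2% of all 15590 genes called there, 11.3% higher and 13.9% lower. Ndufb6, an accessory complex I subunit, was at 29.5, 31.4, 33.2 and 32.6 CPM in control and at 24.8, 24.2, 23.0, 25.1 and 27.9 CPM in arsenic libraries, a 1.24-fold fall without overlap (log2 -0.31 ± 0.07, edgeR adjusted p 0.00803). Cox6b2 was at 4.61, 3.93, 5.5 and 3.43 CPM against 2.62, 2.20, 3.16, 2.26 and 2.60 CPM. These groups do not overlap either, and the fall was 1.65-fold (log2 -0.72 ± 0.19, edgeR adjusted p 0.013). Ndufb11, an X-linked complex I subunit, was at 93.4, 90.0, 108 and 91.4 CPM in control and 107, 99.6, 109, 115 and 105 CPM in arsenic libraries. The groups overlap through control library 4, and the rise was 1.15-fold (log2 0.20 ± 0.07, edgeR adjusted p 0.0355).

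Cell-type markers moved in the cecum too. Enterocyte markers were lower for 6 of 12, with sums of 34368 to 37063 CPM on control and 27746 to 33389 CPM on arsenic feed, without overlap, and large intestine markers for 5 of 6 (39371 to 47600 against 32040 to 37874 CPM). Smooth muscle markers were higher for 4 of 11 (3386 to 4494 against 3795 to 6155 CPM), fibroblast markers for 4 of 7 and T cell markers for 4 of 6. With the smooth muscle score as a covariate neither fall among the subunits was called, and with the clock score no subunit was. The part of these markers was not tested.

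The count in the cecum was 7 without control library 4 and 6 without arsenic library 12, and upper-quartile scaling gave 8 higher and 2 lower. Core subunits there had log2 changes between -0.12 (Ndufv1) and 0.10 (Ndufs1), none called. Of 12 mitochondrially encoded subunits 5 rose in the cecum on arsenic feed, with a median of 0.32, among them mt-Cytb (log2 0.32 ± 0.09, edgeR adjusted p 0.0125). The transcription factor gene Nrf1 fell (log2 -0.40 ± 0.08, edgeR adjusted p 0.00366), as did 9 of 20 glycolysis genes. In the colon no subunit of 79 passed in edgeR, 2 had an unadjusted p under 0.05, and DESeq2 gave 0 as well. Over all 16492 genes 0.649% were called, and 20 of 79 estimates lay above 0, with a median of -0.05. That median became 0.02 without colon control library 1 and -0.12 without control library 4.

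**Figure D5:**
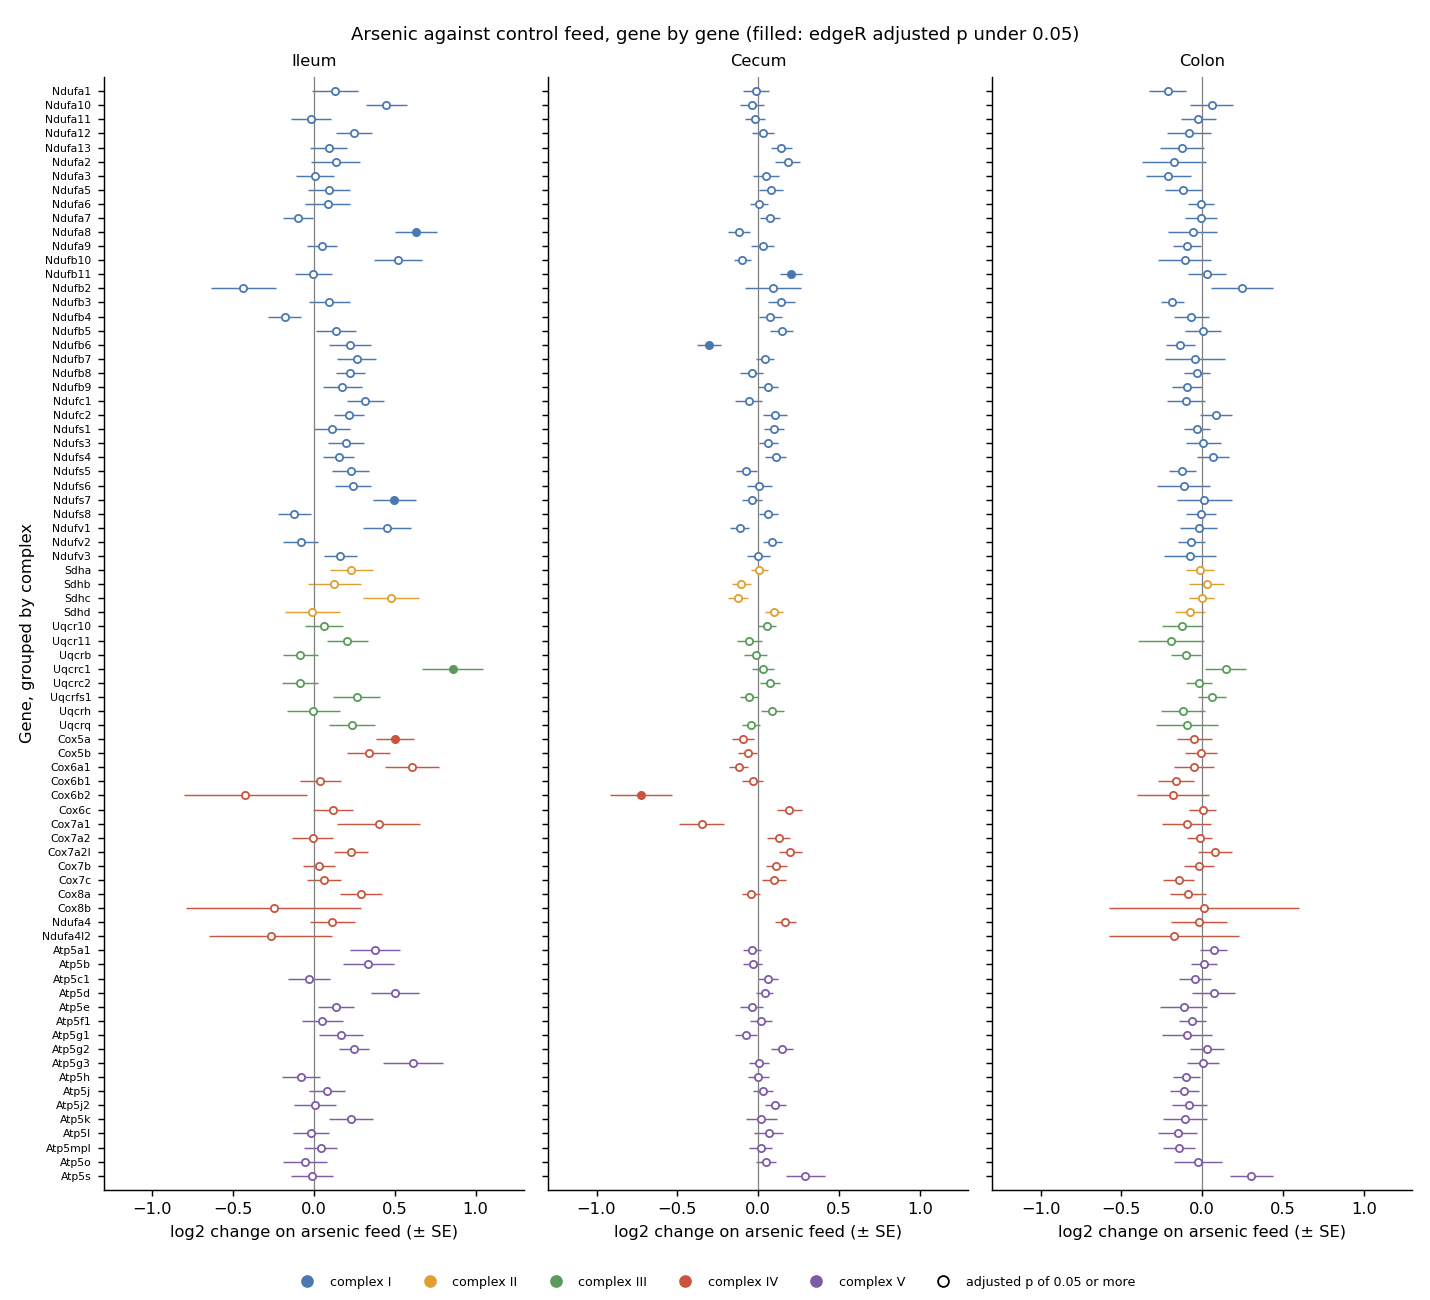
log2 change on arsenic feed against control feed (x axis) of the genes named on the y axis (grouped and coloured by complex) in the ileum, cecum and colon; bars are standard errors and filled points passed the edgeR test. The ileal estimates lie mostly to the right of 0, with wider bars, and the cecal and colonic ones close to it.

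Whether the arsenic effect differed between regions was tested directly, with an F-test of the interaction in 1 fit of all 27 libraries. It called 10 of 79 subunits (12.7%), against 7.62% of all 17763 genes. They included Cox5a, Ndufa8, Cox6a1, Uqcrc1, Ndufb6, Atp5g3, Sdhc, Ndufb10 and Ndufv1, with edgeR adjusted p of 0.00803 to 0.0293. In the separate fits by region their ileal log2 changes ran from 0.22 (Ndufb6) to 0.86 (Uqcrc1), the cecal ones from -0.31 (Ndufb6) to 0.03 (Uqcrc1), and the colonic ones from -0.14 (Ndufb6) to 0.14 (Uqcrc1). All 10 estimates were thus highest in the ileum. Atp5g3 encodes a subunit of the membrane ring of the ATP synthase. It was at 443, 375, 353 and 406 CPM in ileum control libraries. In ileum arsenic libraries it was at 435, 749.6, 483, 659.7 and 776 CPM, with arsenic library 11 inside the control range. Its ileal log2 change was 0.61 ± 0.18, against 0.01 ± 0.06 for cecum and 0.00 ± 0.10 for colon. Without ileum libraries 14 and 15 the test called 3 subunits, with upper-quartile scaling 4, without ileum control library 2 or 3 it called 2 and 5, and without ileum arsenic library 11 it called 21.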

How the data were processed

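The files hold whole-number counts of reads per Ensembl gene for 27 poly-A libraries, which the authors deposited as 1 table. Alignment with HISAT2 2.1.0, SAMtools, counting with HTSeq 0.6.0 and DESeq2 1.6.3 are named per the submitters' processing notes. Build, annotation release and strand setting are not given in the sources used here. Of 52550 identifiers, 147 matched no symbol. Libraries held 15717600 to 18208518 counts, and none was identical to another.

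All genes were fitted with edgeR 4.0.16 in R 4.3.3 (robust quasi-likelihood, TMM scaling, filterByExpr with minimum counts of 10 per library and 15 in all), with Benjamini-Hochberg adjusted p under 0.05 as a call. Diet was tested within each region on its own libraries, regions within each diet on the libraries of that diet, and a different arsenic effect from region to region by an interaction F-test over all 27 libraries. The scripts were tested on simulated data. Fits with RLE or upper-quartile scaling, with scaling that omits mitochondrially encoded genes and the subunits, with DESeq2 1.42.0, with no filter or a filter of 1 CPM, with all 27 libraries, with a smooth muscle or clock score as covariate, with a replicate block and without each library were the alternatives. The fit without ileum arsenic libraries 14 and 15 was chosen after seeing the data.

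The subunits and lists were chosen with earlier results of these data known. Subunits named are the 3 with the smallest p in each direction per comparison, fixed core subunits, isoform pairs and regulators, and up to 2 genes per companion list. Others are named where they complete a count, and 1 subunit is counted but not reported here by name. Same-numbered libraries of different regions deviated together, with a correlation over 0.1, in all 4 pairs of cecum and colon on control feed (0.12 to 0.24). These low correlations do not show that such libraries come from 1 mouse, and the main fit did not pair them. In that comparison the replicate block gave 57 subunits in place of 55. In no other pair of regions did all same-numbered libraries do so (14 of 24 in total). The table of RefSeq promoters is on build GRCm38.p6.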

Additional observations from a re-analysis of the deposited data

Results flagged for a closer look

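A single library stood apart from the rest of its group in 9 of 98 combinations of gene and group that were checked, where chance gives about 1 in 20. Cox6b1, the widespread form of that complex IV subunit, was at 307.5 CPM in ileum control library 1, against 239.5 to 250.4 CPM in the other 3. It was at 262.1 CPM in colon control library 1, against 185.4 to 202.7 CPM. Cox6b2, its testis form, was at 11.21 CPM in ileum arsenic library 15 (others 2.85 to 4.614 CPM) and at 2.554 CPM in colon arsenic library 12 (others 3.492 to 3.537 CPM). Cox7a1, the heart and muscle form, was at 46.4 CPM in cecum control library 4, against 34.45 to 36.32 CPM. Ndufa4 was at 65.92 CPM in cecum control library 1, against 76.19 to 77.96 CPM. Ndufs1 was at 186.4 CPM in cecum arsenic library 14 (others 169.3 to 172.6 CPM) and at 101.3 CPM in colon arsenic library 11 (others 112.7 to 113 CPM). Uqcrfs1 was lowest in that same colon library, at 268.3 CPM against 303.4 to 308.2 CPM.

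The arsenic effect differed between regions, by the F-test of the interaction, for 10 subunits, 9 of which are given here. The edgeR adjusted p was 0.008034 for Cox5a, 0.009132 for Ndufa8, 0.009992 for Cox6a1, 0.01067 for Uqcrc1 and 0.0148 for Ndufb6. It was 0.02282 for Atp5g3, 0.02431 for Sdhc, 0.02841 for Ndufb10 and 0.02934 for Ndufv1. All 10 had their highest estimate in the ileum.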

How the results depend on the processing

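Of 154 gene results followed, 67 were called. None of these changed sign in the alternatives run, and 23 lost the call under at least 1 of them. Counts of subunits called on arsenic against control feed moved most. In the ileum the 4 became 8 with upper-quartile scaling, 12 in DESeq2, 24 in 1 fit of all 27 libraries, and 0 with the smooth muscle score, with the clock score, or without arsenic libraries 14 and 15. Over all genes there, 1190 became 2141 in DESeq2, 2889 in the fit of all libraries, 21 with the muscle score, 0 with the clock score and 673 without libraries 14 and 15. In the cecum the 3 became 10 with upper-quartile scaling, 5 in DESeq2, 5 with no filter, 1 in the fit of all libraries, 1 with the muscle score and 0 with the clock score. Over all genes there, 3933 became 2021 in the fit of all libraries, 2396 with the muscle score and 25 with the clock score. Upper-quartile scaling turned the cecal split of all genes from 1768 higher and 2165 lower to 2448 and 1627. In the colon 107 genes became 665 in DESeq2, 493 in the fit of all libraries, 8 with the muscle score and 0 with the clock score. Since the clock score differed between diets, such a fit leaves little to tell diet by, and the cause of the other shifts was not tested.

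For the interaction, the 10 subunits became 4 with upper-quartile scaling and 3 without ileum arsenic libraries 14 and 15, and the 1353 genes became 827 with no filter and 899 without those libraries. The region comparisons stayed within 1.5 times the count in every alternative that kept all libraries. Upper-quartile scaling moved the median of all genes in cecum against ileum on control feed from -0.03 to -0.19 and that of the subunits from 0.17 to 0.01. In colon against cecum it moved them from -0.05 to 0.09 and from -0.40 to -0.27.

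Leaving out each library in turn gave 0 to 12 subunits and 121 to 1583 genes in the ileum, 2 to 7 and 3070 to 4313 in the cecum, and 0 and 6 (without arsenic library 13) to 351 (without control library 1) in the colon. On control feed it gave 33 to 37 and 8442 to 8806 for cecum against ileum, 48 to 64 and 6853 to 8931 for colon against cecum, and 30 to 55 and 8081 to 9575 for colon against ileum. The same comparisons on arsenic feed gave 18 to 29 and 8171 to 9055, 43 to 70 and 5309 to 6919, and 53 to 61 and 9165 to 10248. The interaction gave 2 to 21 and 551 to 1866.

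With the replicate number as a block (the replicate block), the counts of subunits in those 6 comparisons were 37, 57, 35, 24, 52 and 59, and 11 for the interaction, so no count moved by over 1.5 times. Over all genes the replicate block gave 8837, 7751, 8565, 8959, 6580 and 9972, and 1287. Of 24 same-numbered pairs, 14 correlated best with their own number. With 4 or 5 libraries a group, small changes of the kind seen in the colon may not be detectable, and genes under 1 CPM rest on few counts.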
